A study of Mus musculus with 44 samples.

Results

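CTCF binding was examined around 10 genes that encode core transcription factors of mouse pluripotency other than *Nanog*: *Pou5f1*, *Sox2*, *Klf4*, *Klf2*, *Esrrb*, *Tfcp2l1*, *Prdm14*, *Zfp42*, *Sall4* and *Tbx3*. Every CTCF peak with its summit in one of these genes or within 50 kb of it (mm10, GRCm38) was taken, and within 150 kb for *Sox2*, whose distal enhancer lies far from the gene. The 10 windows span 1492 kb in all, and they held 91 CTCF sites, with 87 of the 59698 peaks of the *Setdb1* KO list and 78 of the 44241 peaks of the WT list. The genes were given by name and not by a CTCF threshold.

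The study deleted *Setdb1*, which encodes an H3K9 methyltransferase of heterochromatin, and profiled chromatin in mouse embryonic stem cells (ESCs). *Setdb1* KO ESCs were TT2 cells (C57BL/6/CBA F1) of 1 conditional line that received 800 nM 4-OHT over 4 days and were collected at day 6, and WT ESCs were TT2 cells labelled WT. Exposure to 4-OHT and loss of *Setdb1* cannot be told apart in the labels of these samples. The series has 44 samples, and the CTCF peak lists of 1 *Setdb1* KO library and 1 WT library were analysed here, so that the comparison has no replicate error and no test. The lists hold no value for *Setdb1* or for expression, so that neither the deletion nor the ESC identity can be checked in them.

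CTCF is a zinc finger protein that binds a long directional motif and stops cohesin during loop extrusion, which places it at loop anchors and at the borders of domains. Such borders decide which enhancers reach which promoters. In ESCs, Oct4 (the product of *Pou5f1*) and Sox2 bind together at enhancers of the network, and Klf4, Klf2, Esrrb, Tfcp2l1, Prdm14, Zfp42, Sall4 and Tbx3 join them or act on single branches of it.

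A value is given for each site as the number of fragments over the summit (its pileup), derived from the enrichment and p-value that the authors listed. The lists correspond to 27.6 M tags in the *Setdb1* KO library and 27.4 M tags in the WT library, and the smallest pileups listed are 8 fragments in *Setdb1* KO and 9 in WT. Over the 41869 sites where 1 *Setdb1* KO peak overlapped 1 WT peak, the median KO to WT ratio was 1.36 (quartiles of 1.17 and 1.61), whereas tags and fragment sizes alone would give 1.04. A higher ChIP enrichment in the *Setdb1* KO library would raise both the ratios and the number of peaks called in it, and with 1 library this cannot be told apart from more CTCF on DNA. Intervals beside ratios (exact Clopper-Pearson) and shares (Wilson) are 95% intervals and cover counting error only.

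A CTCF motif lay within 50 bp of the summits of 45 of the 87 *Setdb1* KO peaks in the windows (51.7%), against 57.7% of all peaks of that list and, by the choice of threshold, 1% of control windows. The sequences of 11 sites are shown because the results turn on them, and they were chosen after the values were known: the KO-only sites with a motif, the sites with the highest ratios near *Esrrb* and *Prdm14*, the sites with the highest WT pileup near *Sox2* and *Tbx3*, the *Sox2* site nearest its start, a tall site upstream of *Pou5f1* and the site in a coding exon of *Klf4*. Capitals mark the 20 bp match to the CTCF matrix, lower case marks 10 bp on either side, and each is written 5′ to 3′ on the strand that carries the motif, from the mm10 reference and not from the cells. Distances are from the summit to the start of the gene.
Sox2, 2.52 kb upstream, chr3:34647874-34647913, + strand: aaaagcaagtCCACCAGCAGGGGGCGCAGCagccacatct
Sox2, 109.7 kb downstream, chr3:34760089-34760128, - strand: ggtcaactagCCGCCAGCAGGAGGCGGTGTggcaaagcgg
Pou5f1, 40.1 kb upstream, chr17:35465858-35465897, + strand: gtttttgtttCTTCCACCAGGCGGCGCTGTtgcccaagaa
Klf4, coding exon, chr4:55530435-55530474, - strand: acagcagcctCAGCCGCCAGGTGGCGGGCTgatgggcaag
Tbx3, 42.4 kb downstream, chr5:119713049-119713088, - strand: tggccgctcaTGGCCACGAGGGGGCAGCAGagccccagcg
Esrrb, 24.7 kb upstream, chr12:86336394-86336433, - strand: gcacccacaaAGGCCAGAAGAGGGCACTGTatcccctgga
Prdm14, 11.3 kb upstream, chr1:13138432-13138471, + strand: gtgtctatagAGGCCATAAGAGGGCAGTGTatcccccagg
Pou5f1, KO-only, 19.5 kb upstream, chr17:35486577-35486616, - strand: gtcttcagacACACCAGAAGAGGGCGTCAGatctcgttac
Pou5f1, KO-only, 8.35 kb upstream, chr17:35497640-35497679, + strand: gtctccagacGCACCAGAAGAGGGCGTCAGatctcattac
Tfcp2l1, KO-only, 62.9 kb downstream, chr1:118690780-118690819, - strand: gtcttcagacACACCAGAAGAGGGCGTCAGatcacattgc
Esrrb, KO-only, 71.0 kb into the gene, chr12:86432058-86432097, + strand: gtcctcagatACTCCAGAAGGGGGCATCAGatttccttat

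The last 4 sequences, those of the KO-only sites with a motif, are alike. Over the 6 pairs they form, 30 to 37 of the 40 bases were identical. Some shared sites were as like them. The *Sall4* site 23.4 kb from its start matched the first of the 4 at 37 bases. The *Sox2* site 127.6 kb downstream matched it at 36, and these shared sites matched each other at 38. Other shared sites were less alike. The *Pou5f1* site 8.05 kb from its start matched the first of the 4 at 18 bases. Each of these 4 KO-only sites lay in a stretch that the reference marks as repeat over 100% of the 50 bp on either side of the summit. They are 4 of the 14 KO-only sites of the windows (28.6% with a motif, against 36.8% of all KO-only peaks). No other KO-only site of the windows was mostly masked, so that 4 of 14 were, against 41.4% of all KO-only peaks. Of the 73 shared peaks of the windows, 28 were mostly masked, against 24.7% of all shared peaks. The repeat family was not annotated here. Motifs in mostly masked stretches were also found at shared sites, 22 of the 41 with a motif. Reads were kept by the authors only where they aligned to a single place, so that the pileup at such a repeat rests on the reads that reach unique sequence.

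Of the 87 *Setdb1* KO peaks, 73 shared at least 1 bp with a WT peak (shared) and 14 did not (KO-only), which is 16.1% (9.83 to 25.2%) against 28.8% of the whole *Setdb1* KO list. Among all peaks within 50 kb of any of 21911 protein-coding genes, 27.9% were KO-only. WT-only peaks numbered 4 of the 78 WT peaks (5.13%), against 3.22% of the whole WT list. The KO-only peaks fell in the windows of 5 genes, *Sall4* (4), *Pou5f1* (3), *Esrrb* (3), *Sox2* (2) and *Tfcp2l1* (2), and the windows of *Klf4*, *Klf2*, *Prdm14*, *Zfp42* and *Tbx3* held none. Among all protein-coding genes, 70.6% had at least 1 KO-only peak within 50 kb. The WT-only peaks lay in the windows of *Pou5f1*, *Sox2*, *Klf4* and *Esrrb*, 1 in each.

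The KO-only peaks were weak. Their pileups ran from 10 to 27 fragments with a median of 15.5, against a median of 18 fragments over all KO-only peaks, and 11 of the 14 had fewer than 20 fragments. Shared sites of the windows had a median of 52 fragments in *Setdb1* KO, against 55 over all shared sites. Because the lists give nothing where no peak was called, the WT fragments under a KO-only peak are not known, and a WT signal just below the calling threshold would also give a KO-only peak. A WT peak lay within 1 kb of 5 of the 14 KO-only peaks. Without such peaks, the KO-only share was 10.3% in the windows (9 peaks), against 26.1% over the whole *Setdb1* KO list. With the *Setdb1* KO list shortened to as many peaks as the WT list has, 2 KO-only peaks were left in the windows, at *Sall4* and *Pou5f1*.

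**Figure D1:**
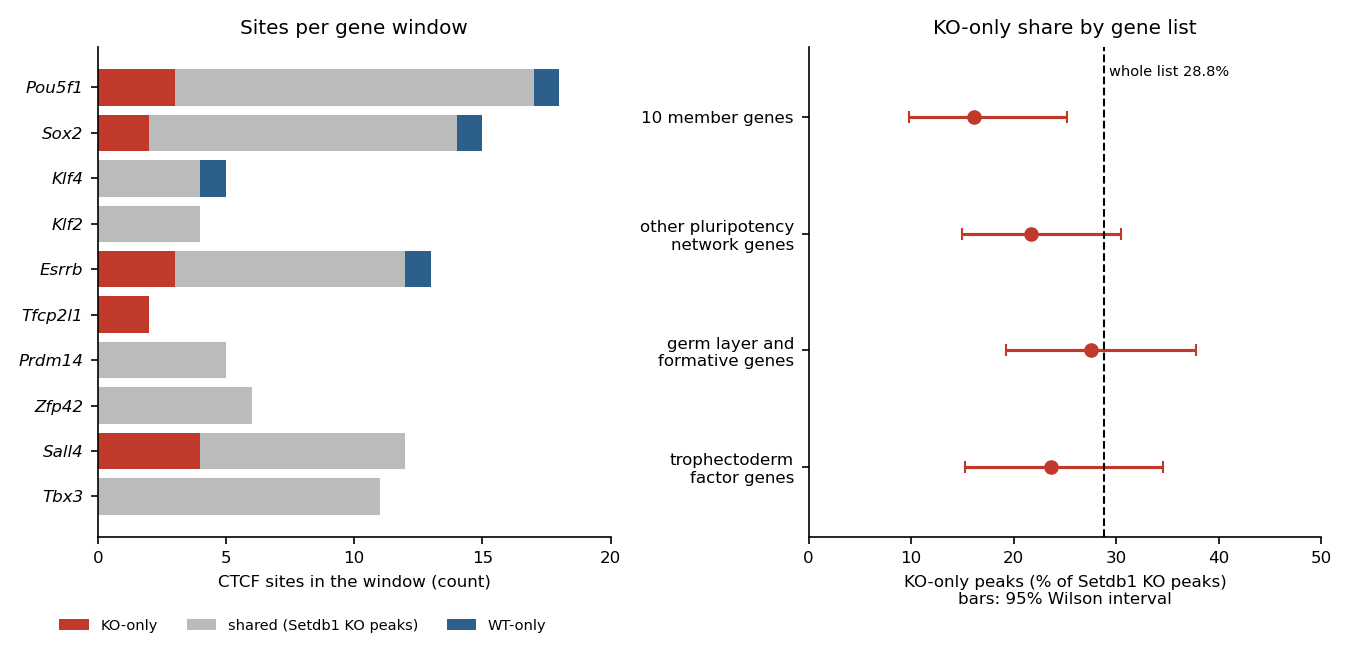
Left, the number of CTCF sites in each gene window as stacked bars of KO-only, shared and WT-only sites. Right, the percent of *Setdb1* KO peaks that were KO-only in the windows of the 10 genes and of 3 other gene lists, with 95% Wilson intervals, and the percent over the whole list (28.8%) as a dashed line. *Sall4* has the most KO-only peaks (4), and 5 of the 10 windows have none.

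At 69 sites, 1 *Setdb1* KO peak met 1 WT peak, so that the pileups could be paired. The median ratio of the 69 was 1.36, the same as over the whole lists, and the summed pileups were 4085 fragments in *Setdb1* KO against 3005 in WT (ratio 1.36, 1.3 to 1.43). *Setdb1* KO had the larger pileup at 61 sites and the smaller one at 6, and the pileups were equal at 2. A ratio below 1 was thus seen at 6 of 69 sites, against 7.41% of all pairs, and a ratio of 2 or more at 4 of 69, against 9.39% of all pairs. The interval of the ratio lay wholly above 1 at 21 of the 69 sites, against 31.5% of all pairs. It lay above the median of all pairs at 2 sites, one near *Esrrb* and one near *Prdm14* (5.49% of all pairs), and below it at 0 sites (2.27% of all pairs). These counts were not tested.

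**Figure D2:**
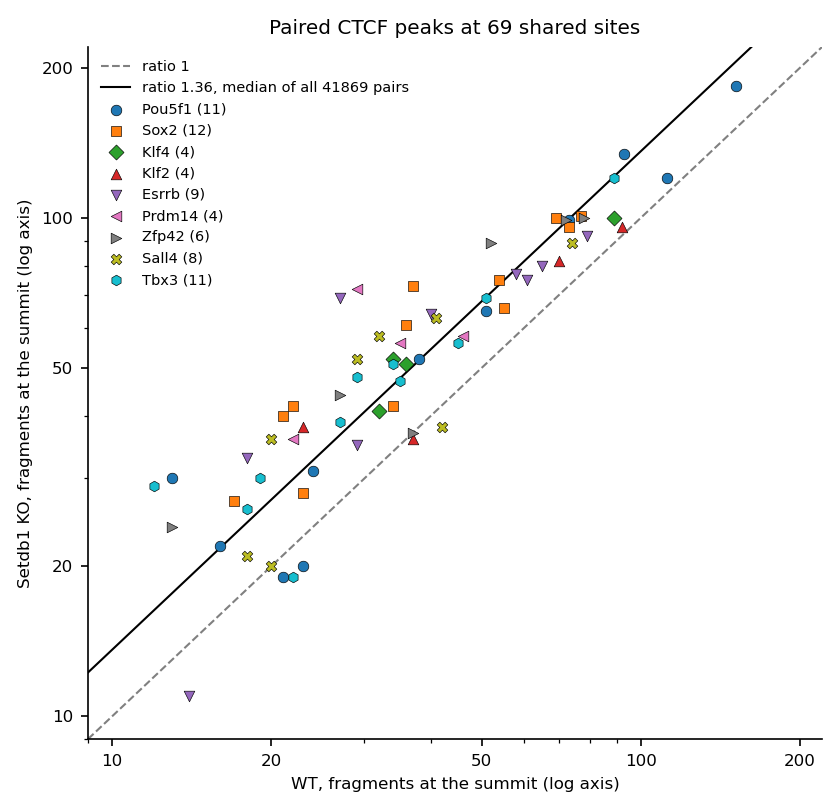
Fragments over the summit in *Setdb1* KO (vertical log axis) and in WT (horizontal log axis) at the 69 paired sites, 1 point per site, with the number of pairs of each gene in the legend. The dashed line is a ratio of 1 and the solid line the median ratio of all 41869 pairs (1.36). The points follow the solid line, and 6 lie below the dashed line, all with 14 to 42 WT fragments.

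The ratio varied with sequence context and with WT pileup in the windows much as it did over the whole lists. At the 26 paired sites in a stretch marked mostly as repeat, the median ratio was 1.56, and at the other 43 it was 1.32. Over all pairs, these medians were 1.52 and 1.32. Sites with a called motif had a median ratio of 1.38 (n = 39) and sites without one 1.28 (n = 30), against 1.39 and 1.3 over all pairs. By WT pileup, the medians were 1.58 under 25 fragments, 1.5 from 25 to under 50 and 1.28 at 50 or more. Over all pairs, these were 1.5, 1.41 and 1.28. The WT pileup is itself the divisor of the ratio. The 4 sites with a ratio of 2 or more had 12 to 29 WT fragments. The 11 promoter sites had a median ratio of 1.29, the 20 intronic sites 1.35 and the 35 intergenic sites 1.38. These promoter sites include those of neighbouring genes and noncoding transcripts, such as *Atp9a*, *Ncoa2* and *Sox2ot*. Medians by place were not computed over all pairs.

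*Pou5f1* encodes Oct4, the POU homeodomain factor without which the inner cell mass is not maintained. Its window (chr17:35456018-35560772) was the densest of the 10, with 16.2 *Setdb1* KO peaks per 100 kb, against a median of 3.87 over protein-coding genes. It held 14 shared, 3 KO-only and 1 WT-only site. The shared site nearest the start lay 2.44 kb into the gene (chr17:35508296-35508700), close to the start of another *Pou5f1* transcript, and had 30 fragments in *Setdb1* KO against 13 in WT (ratio 2.31, 1.17 to 4.82), the highest of the window. A second site 3.50 kb into the gene had 31 fragments in *Setdb1* KO against 24 in WT (ratio 1.29, 0.734 to 2.30). Both are small beside the largest sites that flank the gene.

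The largest *Pou5f1* pileups flanked the gene on both sides. In a UTR exon of *Cdsn*, a gene of the cornified skin layer 51.0 kb from the *Pou5f1* start, the summit had 184 fragments in *Setdb1* KO against 151 in WT (ratio 1.22, 0.977 to 1.52). The site 40.1 kb upstream, whose sequence is shown, had 134 fragments in *Setdb1* KO against 93 in WT (ratio 1.44, 1.10 to 1.90). At 21.7 kb upstream, a peak of 140 fragments in *Setdb1* KO and a smaller one of 17 fragments beside it met a single WT peak of 101 fragments, so that no ratio was formed. The lowest ratio was at 52.4 kb downstream, with 20 fragments in *Setdb1* KO against 23 in WT (ratio 0.870, 0.453 to 1.66).

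All 3 KO-only peaks of *Pou5f1* lay upstream, on the side of its proximal and distal enhancers but farther from the gene than these. They were at 20.7 kb (chr17:35485129-35485399) with 13 fragments, at 19.5 kb (chr17:35486404-35486653) with 22 fragments and at 8.35 kb (chr17:35497578-35497801) with 16 fragments. The peaks at 19.5 kb and 8.35 kb hold the 2 alike motifs printed above, and they point in opposite directions. The nearest WT summits were 1.06 kb, 2.31 kb and 0.902 kb away. The WT-only peak lay 29.5 kb downstream (chr17:35535444-35535674) with 16 fragments, and it too had a motif in a stretch marked as repeat. Over the 11 pairs of the window, the summed pileups were 776 fragments in *Setdb1* KO against 615 in WT (ratio 1.26, 1.13 to 1.40).

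*Sox2* encodes the HMG box partner of Oct4, and in ESCs it is driven by the Sox2 control region, a distal enhancer downstream of the gene. The window of *Sox2* (chr3:34500405-34802461) held 12 shared, 2 KO-only and 1 WT-only site, and no peak in the gene itself. The site nearest the start was 2.52 kb upstream (chr3:34647711-34648222), in an intron of the noncoding transcript *Sox2ot*, with 100 fragments in *Setdb1* KO against 69 in WT (ratio 1.45, 1.06 to 2.00). The largest WT pileup was 109.7 kb downstream (chr3:34759878-34760397), on the side of the control region, with 101 fragments in *Setdb1* KO against 77 in WT (ratio 1.31, 0.965 to 1.79). The motifs of these 2 sites, both printed above, point towards each other.

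All 12 *Sox2* pairs had the larger pileup in *Setdb1* KO. The highest ratio, 1.97 (1.31 to 3.01), was 49.1 kb upstream with 73 fragments in *Setdb1* KO against 37 in WT, and the lowest, 1.2 (0.826 to 1.75), was 11 kb upstream with 66 fragments in *Setdb1* KO against 55 in WT. The sums were 751 fragments in *Setdb1* KO against 518 in WT (ratio 1.45, 1.29 to 1.62). The KO-only peaks were 26.9 kb upstream (chr3:34623470-34623662) with 13 fragments and 101.2 kb downstream (chr3:34751494-34751866) with 18 fragments, and neither had a called motif. The WT-only peak of 20 fragments lay 13.3 kb upstream (chr3:34637028-34637245), 0.041 kb from a *Sox2ot* start, also without a motif.

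*Klf4* and *Klf2* encode Krüppel-like zinc finger factors that can stand in for each other in ESCs. The window of *Klf4* (chr4:55477143-55582466) held 4 shared sites and 1 WT-only site, all in the gene or downstream of it. Upstream of *Klf4*, the nearest *Setdb1* KO summit was 690 kb away and the nearest WT summit also 690 kb away, against a median upstream distance of 16.5 kb over protein-coding genes in the *Setdb1* KO list. A distance at least as long was found for 1.48% of these genes. In the gene, the site 1.05 kb from the start had 52 fragments in *Setdb1* KO against 34 in WT (ratio 1.53, 0.974 to 2.43), and the one in a coding exon (chr4:55530143-55530983), printed above, had 51 fragments in *Setdb1* KO against 36 in WT (ratio 1.42, 0.907 to 2.23).

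The other end of the *Klf4* sites was 51.8 kb downstream (chr4:55480418-55480822), towards the distal enhancers that *Klf4* uses in ESCs. It had 100 fragments in *Setdb1* KO against 89 in WT (ratio 1.12, 0.836 to 1.51), the lowest of the window. The WT-only peak of 15 fragments lay 54.4 kb downstream (chr4:55477972-55478176). The 4 pairs summed to 244 fragments in *Setdb1* KO against 191 in WT (ratio 1.28, 1.05 to 1.55).

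*Klf2* had 4 sites, all shared and all more than 25 kb from its start (chr8:72269033-72371656). The site 25.6 kb upstream had 38 fragments in *Setdb1* KO against 23 in WT (ratio 1.65, 0.959 to 2.9). The largest, 46.5 kb upstream, had 96 fragments in *Setdb1* KO against 92 in WT (ratio 1.04, 0.776 to 1.40), and its neighbour at 45.7 kb upstream had 36 fragments in *Setdb1* KO against 37 in WT (ratio 0.973, 0.598 to 1.58). The sums, 252 fragments in *Setdb1* KO against 222 in WT, gave 1.14 (0.944 to 1.37), the lowest ratio of the 9 genes with pairs. This interval takes in both 1 and the median of all pairs.

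*Esrrb* encodes an orphan nuclear receptor that sustains self-renewal when added in excess. Its window (chr12:86311117-86571628) held 9 shared, 3 KO-only and 1 WT-only site, and 6 of the shared sites and all of the KO-only and WT-only ones lay in its introns. The highest ratio of the window lay upstream of the gene. At 24.7 kb upstream (chr12:86336176-86336778), the summit had 69 fragments in *Setdb1* KO against 27 in WT (ratio 2.56, 1.62 to 4.15), the highest of all 69 pairs, and at 16.8 kb upstream it had 64 fragments in *Setdb1* KO against 40 in WT (ratio 1.60, 1.06 to 2.44). In the introns, the largest site, 148 kb from the start, had 92 fragments in *Setdb1* KO against 79 in WT (ratio 1.16, 0.853 to 1.59).

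The lowest ratio of all 69 pairs was also in *Esrrb*, 136 kb from its start, with 11 fragments in *Setdb1* KO against 14 in WT (ratio 0.786, 0.323 to 1.86). The sums of the 9 pairs were 536 fragments in *Setdb1* KO against 391 in WT (ratio 1.37, 1.2 to 1.57). Without the site 24.7 kb upstream, they gave 1.28 (1.12 to 1.48). The KO-only peaks were 71.0 kb from the start (chr12:86432031-86432248) with 20 fragments, 123 kb (chr12:86483854-86484085) with 10 fragments and 147 kb (chr12:86507948-86508147) with 19 fragments. Each stood beside a shared site, with the nearest WT summit at 1.35 kb, 0.618 kb and 0.785 kb. The WT-only peak had 12 fragments, 155 kb from the start (chr12:86516232-86516417).

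*Tfcp2l1* encodes a CP2 family factor downstream of LIF and Stat3. It was the only one of the 10 windows without a WT peak (chr1:118577945-118735168), and the nearest WT summit was 63.2 kb from its start. No WT peak was found within 50 kb of 13.2% of protein-coding genes. Both of its *Setdb1* KO peaks were thus KO-only. The first lay 62.9 kb from the start and 5.65 kb past the end of the gene (chr1:118690692-118690884), with 15 fragments over the repeat whose motif is printed above, and the second 103 kb from the start (chr1:118731268-118731473), with 19 fragments and no motif. The nearest WT summits were 69.0 kb and 28.4 kb from these peaks. Neither peak was left when the lists were cut to equal length or to a fold enrichment of at least 5.

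*Prdm14* encodes a PR domain protein that restrains FGF signalling and DNA methylation in ESCs and is required in germ cells. Its window (chr1:13063457-13177163) held 5 *Setdb1* KO peaks, all shared. The site 11.3 kb upstream (chr1:13138220-13138679), near the end of *Ncoa2*, had 72 fragments in *Setdb1* KO against 29 in WT (ratio 2.48, 1.59 to 3.96). The site 7.33 kb upstream had 56 fragments in *Setdb1* KO against 35 in WT (ratio 1.60, 1.03 to 2.52), and the one 24.0 kb upstream, at a start of *Ncoa2*, had 58 fragments in *Setdb1* KO against 46 in WT (ratio 1.26, 0.842 to 1.90). In the gene, a peak of 48 fragments in *Setdb1* KO met 2 WT peaks of 37 and 17 fragments and was not paired. The sums, 222 fragments in *Setdb1* KO against 132 in WT, gave the highest ratio of the 9 genes, 1.68 (1.35 to 2.1), and without the site 11.3 kb upstream they gave 1.46 (1.13 to 1.89).

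*Zfp42* encodes Rex1, a zinc finger protein whose loss of expression marks the exit from the naive state. Its window (chr8:43245063-43356980) held 6 sites, all shared. The site in its intron, 8.42 kb from the start, had 37 fragments in *Setdb1* KO against 37 in WT (ratio 1.00, 0.617 to 1.62), the lowest of the window. The highest, 1.85 (0.903 to 3.95), was 61.4 kb downstream with 24 fragments in *Setdb1* KO against 13 in WT, and the largest site, 26.7 kb upstream, had 100 fragments in *Setdb1* KO against 78 in WT (ratio 1.28, 0.944 to 1.75). The sums were 393 fragments in *Setdb1* KO against 279 in WT (ratio 1.41, 1.21 to 1.65).

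*Sall4* encodes a spalt family zinc finger factor that binds with Oct4 and keeps ESCs from trophectoderm fates. Its window (chr2:168698332-168817943) held 8 shared and 4 KO-only sites, and 2 of the KO-only peaks were at its own promoters. With peaks of both lists limited to a −log10 q or a fold enrichment of at least 5, the *Pou5f1* promoter site at 2.44 kb also counted as KO-only. With a reciprocal overlap of 50%, the *Pou5f1* promoter site at 3.50 kb did so, and its WT peak counted as WT-only. The limit on fold enrichment left 1 KO-only peak at *Sall4*, the one 0.829 kb from its start. The KO-only peak 0.829 kb from the start (chr2:168766981-168767193) had 27 fragments, a fold enrichment of 7.75 and no called motif, and was the strongest KO-only peak of all 10 windows. The second, 2.74 kb into the gene and 0.047 kb from another *Sall4* start (chr2:168765021-168765268), had 15 fragments. Neither lay in a masked stretch, and the nearest WT summits were 7.05 kb and 8.96 kb away. The other KO-only peaks were 28.3 kb downstream (chr2:168739591-168739996), 0.543 kb from a WT summit, with 13 fragments, and 39.8 kb upstream (chr2:168807645-168807837) with 14 fragments.

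In the *Setdb1* KO list, a summit lay within 1 kb of the start of 2 of the 10 genes, *Sall4* and *Tbx3*, and in the WT list of 1, *Tbx3*. Over protein-coding genes, these shares were 16% in the *Setdb1* KO list and 12.4% in the WT list. The shared sites of *Sall4* lay mostly in and before the neighbouring gene *Atp9a*. The largest of these, 25 kb from the *Sall4* start, had 89 fragments in *Setdb1* KO against 74 in WT (ratio 1.2, 0.874 to 1.66). The highest ratio, 1.81 (1.16 to 2.88), was 23.4 kb from the start with 58 fragments in *Setdb1* KO against 32 in WT, and the lowest, 0.905 (0.568 to 1.44), was 38 kb from it with 38 fragments in *Setdb1* KO against 42 in WT. On the upstream side, the nearest site at 6.11 kb had 21 fragments in *Setdb1* KO against 18 in WT (ratio 1.17, 0.592 to 2.32). The sums were 377 fragments in *Setdb1* KO against 276 in WT (ratio 1.37, 1.17 to 1.60).

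*Tbx3* encodes a T-box factor that LIF signalling maintains in ESCs and that also acts in extraembryonic endoderm. Its window (chr5:119620669-119734724) held 11 sites, all shared, 8 of which lay downstream in intergenic sequence. The summit at its own promoter, 0.106 kb from the start (chr5:119670547-119670948), had 39 fragments in *Setdb1* KO against 27 in WT (ratio 1.44, 0.862 to 2.45), with no called motif. The largest site, 42.4 kb downstream and printed above, had 120 fragments in *Setdb1* KO against 89 in WT (ratio 1.35, 1.02 to 1.79). Close to it, at 40.2 kb, was the highest ratio, 2.42 (1.2 to 5.20), with 29 fragments in *Setdb1* KO against 12 in WT, and 9.94 kb upstream the lowest, 0.864 (0.442 to 1.67), with 19 fragments in *Setdb1* KO against 22 in WT. The sums were 534 fragments in *Setdb1* KO against 381 in WT (ratio 1.40, 1.23 to 1.60).

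**Figure D3:**
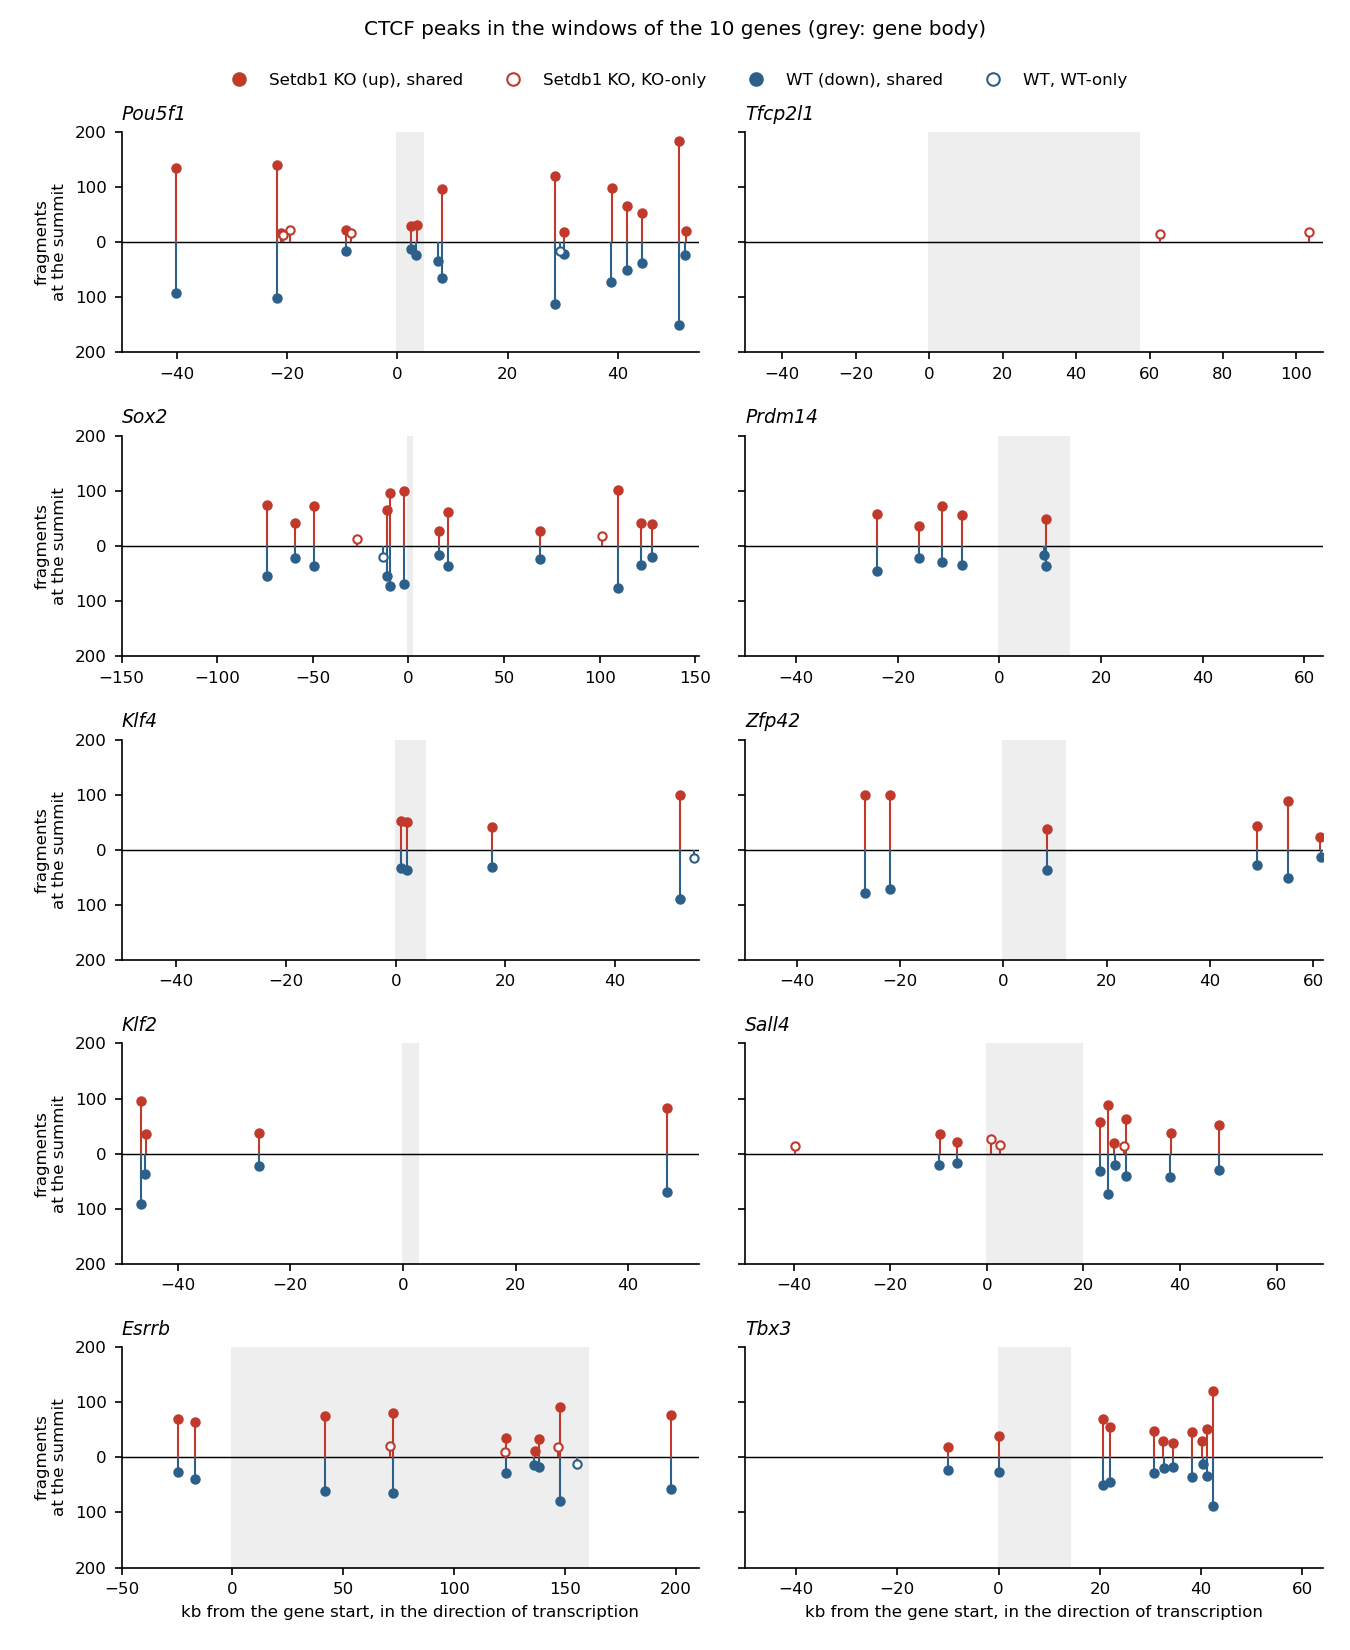
Fragments over the summit of every CTCF peak in the 10 windows, by distance from the gene start in kb along the direction of transcription, with *Setdb1* KO upwards in red and WT downwards in blue. Filled circles are shared peaks, open circles KO-only or WT-only peaks, and grey bands the gene bodies. Nearly all tall peaks are paired, the open circles stay at or below 27 fragments, and *Tfcp2l1* has open circles only.

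Between genes, the ratios of the summed pileups ran from 1.14 at *Klf2* to 1.68 at *Prdm14*, with *Sox2*, *Zfp42*, *Tbx3*, *Esrrb*, *Sall4*, *Klf4* and *Pou5f1* between them in falling order. The intervals of neighbours in this order overlap, and so does each interval with the median of all pairs. *Klf2* and *Prdm14*, the 2 ends of the order, have intervals that reach 1.37 and start at 1.35. The gene order was not tested.

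**Figure D4:**
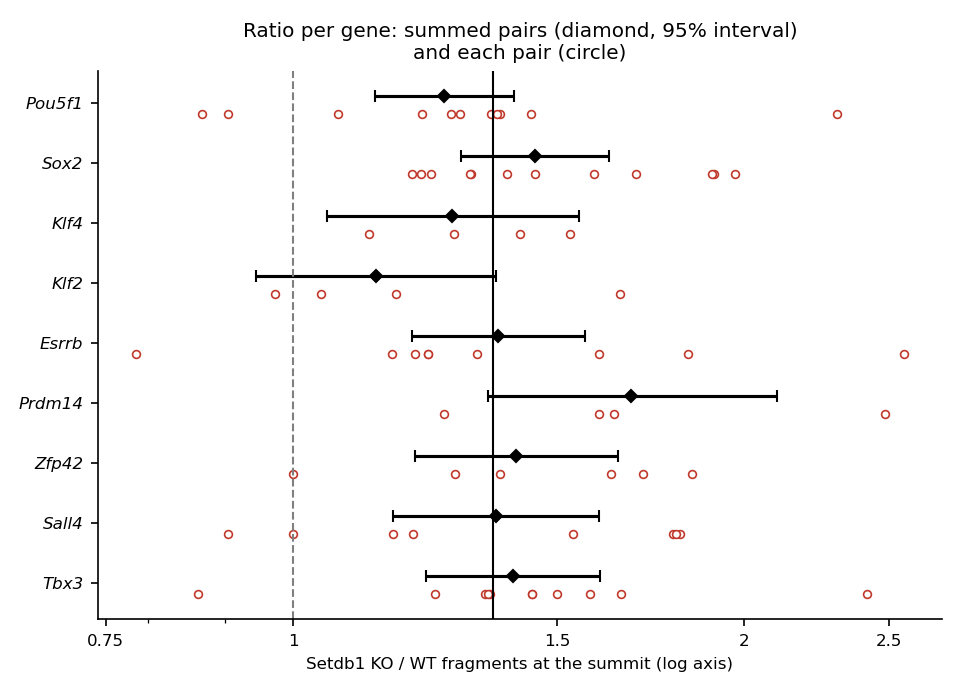
The KO to WT ratio on a log axis for the 9 genes with paired sites. Diamonds are ratios of the summed pileups with exact 95% intervals, circles the single pairs, the dashed line a ratio of 1 and the solid line the median of all pairs (1.36). All 9 intervals reach the solid line, and the interval of *Klf2* also reaches 1.

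Set beside other gene lists in windows of 50 kb, the 10 genes had 13 KO-only of 80 *Setdb1* KO peaks (16.3%, 9.75 to 25.8%). This was 23 of 106 (21.7%, 14.9 to 30.5%) for 20 other genes of the pluripotency network, 24 of 87 (27.6%, 19.3 to 37.8%) for 16 germ layer and formative genes and 17 of 72 (23.6%, 15.3 to 34.6%) for 10 trophectoderm factor genes. The 4 intervals overlap one another. The median ratios were 1.36 for the 10 genes, 1.32, 1.35 and 1.41 for the other lists in the same order, and 1.35 over all pairs near protein-coding genes. The highest KO-only count of a single gene in these other lists was 4, 5 and 4 in the same order. It was reached at *Stat3*, which transmits LIF signals, at *Nes*, the gene of a neural progenitor filament, and at *Tead4*, which starts the trophectoderm programme. Genes with an equal count would not be named here.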

How the data were processed

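The authors aligned CTCF ChIP-seq reads to mm10 (GRCm38) with Bowtie 1.2, keeping uniquely aligned reads, removed duplicates with Picard and called peaks over input with MACS2 2.1.0 at a q of 0.05. For each peak, the 2 deposited lists give a fold enrichment (the ratio of pileup to background, each plus a pseudocount of 1), p and q as −log10 values, a deposited score that is the −log10 q scaled to a whole number, and the summit offset as another deposited column. The pileup was solved from the ratio and the Poisson p for 99.99% of *Setdb1* KO peaks and 100% of WT peaks (tolerance of 0.001 on −log10 p). The input libraries correspond to 28.5 M tags in *Setdb1* KO and 30.9 M in WT. Peaks were placed with GENCODE vM21 (promoter: within 1 kb of a start). Sequences and repeat masking came from the RefSeq GRCm38 genome. The motif matrix used the 1000 most significant shared peaks of the *Setdb1* KO list and was refined in 2 rounds, a step added after a first matrix had rested on 260 matches. A motif was called above the 99th percentile of windows 1 kb away. These steps were tested on simulated data.

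The 10 genes, gene lists and rules were chosen with earlier results of these data known. Named sites were all KO-only and WT-only peaks and, per gene, the shared site nearest the start and those with the highest ratio, lowest ratio and highest WT pileup. *Pou5f1* sites 21.7 kb and 40.1 kb upstream and 3.50 kb into the gene, the *Klf4* coding exon, the *Prdm14* site in the gene and those 7.33 kb and 24.0 kb upstream were added where the rule did not name them. Alternatives were other overlap rules, thresholds, windows and motif settings. The tools were samtools 1.23.1, pysam 0.24.0, scipy 1.17.1, numpy 2.4.6, pandas 2.3.3, matplotlib 3.10.9 and Python 3.11.15. The other assays, cell lines and second CTCF libraries were not analysed here.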

Additional observations from a re-analysis of the deposited data

How the results depend on the processing

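No paired analysis was possible because 1 library per condition has a peak list analysed here. The median ratio of 1.36 in the windows stayed between 1.32 and 1.38 in every setting run except division of the *Setdb1* KO pileups by the median of all pairs. That division makes the median 1.00 by construction and left 12 KO-only peaks of 85 (14.1%, against 27.3% over the whole list). The counts of peaks in 1 list moved more. A reciprocal overlap of 50% gave 26 KO-only peaks (29.9%, against 34.1% over the whole list) and 17 WT-only peaks, and summits within 100 bp gave 9 WT-only peaks. Counting only peaks more than 1 kb from any peak of the other library left 9 KO-only peaks (10.3%, against 26.1%). Keeping peaks enriched at least 5 times in each list left 2 WT-only peaks. Lists of equal length gave 2 KO-only peaks (2.94%, against 11.7%) and 10 WT-only peaks, so that WT-only peaks outnumbered KO-only peaks in the windows there. Equal lengths remove the larger number of *Setdb1* KO peaks by design. For the other overlap rules and thresholds, no WT-only share over the whole WT list was computed. These WT-only counts thus have no background and are not read as a trait of the windows. Windows of 10 kb held 8 KO-only peaks (22.9%, against 28.8%) and 1 WT-only peak. Windows of 100 kb held 32 KO-only peaks (21.8%, against 28.8%). In each setting the KO-only percent of the windows was below that of the whole list. Of 100 counts per gene and setting, 31 moved by over 1.5 times. The counting error of single pileups limits single ratios: most intervals take in both 1 and the median of all pairs.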
